A study of Homo sapiens with 6 samples.

Results

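Cholesterol and fatty acid synthesis was followed through 42 listed genes, 22 of sterol synthesis and 20 of fatty acid and glycerolipid synthesis, in MDA-MB-231 cells given 50 µM TCI04 or PBS. A gene was taken up where the array annotation gave a probe set (the group of probes that reads one transcript) to that gene alone, and the probe set with the highest mean over the 6 arrays stood for it. This gave 37 genes, 20 sterol and 17 fatty acid, of 19775 genes with a probe set of their own. FDFT1 and ACSL3 had no such probe set, and CYP51A1, ELOVL1 and FADS1 only probe sets shared with a second gene, so these 5 are not analysed here. MVD and MLXIPL lay below the filter on dim probe sets, which left 35 genes tested, 19 sterol and 16 fatty acid, among 13674 tested genes.

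MDA-MB-231 is an established human line from a breast cancer without hormone receptors or HER2, of mesenchymal character. Cells received the code-named compound TCI04 for 48 h or phosphate-buffered saline (PBS) for the same time. Total RNA of 3 TCI04 and 3 PBS samples was hybridised to Affymetrix arrays, 1 array per sample. Whether replicates were grown as separate cultures is not stated, so a p-value here reflects array-to-array spread that may be only technical.

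Sterols and fatty acids are both built from acetyl-CoA. Acetyl-CoA is condensed to mevalonate, mevalonate is turned into isoprenoid units, and these are joined to squalene, which is closed to a ring and trimmed to cholesterol; carboxylation and repeated condensation of acetyl-CoA instead give palmitate, which is lengthened, desaturated and attached to glycerol. Both routes are under the sterol regulatory element-binding proteins (SREBPs), membrane-bound transcription factors encoded by SREBF2, which mainly serves sterol genes, and SREBF1, which mainly serves fatty acid genes. When sterols are plentiful, INSIG1 holds the SREBPs in the endoplasmic reticulum, and when sterols are scarce they are cleaved and enter the nucleus, where they act together with the factor NF-Y.

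The promoters are shown because 1 of 3 motifs, the NF-Y box, differs in frequency between the sterol and the fatty acid genes. This comparison uses no array value. A core of the sterol regulatory element, searched as a fixed pattern, matched 1 gene of each list. RefSeq windows of 300 bases (GRCh38.p14, 250 before and 50 after an annotated start site) were at hand for 35 of the 42 listed genes. This set is not the same as the 35 tested on the arrays. No window was at hand for ACAT2, FDFT1, SQLE, FASN, DGAT1, DGAT2 and PNPLA3, so these were not searched. The NF-Y box, CCAAT on either strand, stood in at least 1 window of 17 of 19 sterol genes and of 9 of 16 fatty acid genes, against 39.7% of all 27305 genes with a window and 43.1% of the 11039 tested genes with one. At least 2 boxes in a window were found for 12 of 19 sterol genes and 4 of 16 fatty acid genes, against 12.9% of all genes. Some genes have several windows, and counted by window the boxes were in 19 of 24 sterol and 11 of 26 fatty acid windows, against 34.6% of all 35116. PMVK and CYP51A1 were the sterol genes with no match. A core of the sterol regulatory element, TCACNCCAC on either strand, matched SREBF2 and ACSL1, against 1.39% of all genes. The E-box CACGTG, which reads alike on both strands, matched INSIG1, LSS and SC5D among the sterol genes and ELOVL5 among the fatty acid genes. It matched 8.77% of all genes and 12.2% of the tested genes with a window. A match describes the letters of the window and is not evidence that a factor binds there. A missing match to these fixed patterns in these windows does not show that a gene lacks such a site.

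The 250 bases before the start site are printed for 6 members on which the results below turn, each 5′ to 3′ on the gene's strand, with matches to the NF-Y box, the core of the sterol regulatory element and the E-box in capitals. An NF-Y box on the other strand reads ATTGG. MVK lies at chr12:109573544-109573793 (plus strand), HMGCS1 at chr5:43313413-43313662 (minus strand), SREBF2 at chr22:41832855-41833104 (plus strand), INSIG1 at chr7:155297628-155297877 (plus strand), SCD at chr10:100346983-100347232 (plus strand) and FADS2 at chr11:61815953-61816202 (plus strand).
MVK: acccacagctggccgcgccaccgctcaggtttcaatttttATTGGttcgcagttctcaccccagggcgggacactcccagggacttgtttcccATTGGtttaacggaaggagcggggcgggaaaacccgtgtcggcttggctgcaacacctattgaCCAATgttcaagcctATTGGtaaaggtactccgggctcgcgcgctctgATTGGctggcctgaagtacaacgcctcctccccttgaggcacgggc
HMGCS1: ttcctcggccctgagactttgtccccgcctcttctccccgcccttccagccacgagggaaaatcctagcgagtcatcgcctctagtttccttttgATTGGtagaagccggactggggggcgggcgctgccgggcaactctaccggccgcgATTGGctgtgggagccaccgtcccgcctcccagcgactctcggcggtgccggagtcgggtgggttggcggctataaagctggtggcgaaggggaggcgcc
SREBF2: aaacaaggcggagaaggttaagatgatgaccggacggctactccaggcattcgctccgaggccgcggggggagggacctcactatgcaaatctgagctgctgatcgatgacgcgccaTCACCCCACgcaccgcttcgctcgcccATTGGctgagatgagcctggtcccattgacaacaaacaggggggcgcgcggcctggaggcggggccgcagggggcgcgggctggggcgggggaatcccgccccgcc
INSIG1: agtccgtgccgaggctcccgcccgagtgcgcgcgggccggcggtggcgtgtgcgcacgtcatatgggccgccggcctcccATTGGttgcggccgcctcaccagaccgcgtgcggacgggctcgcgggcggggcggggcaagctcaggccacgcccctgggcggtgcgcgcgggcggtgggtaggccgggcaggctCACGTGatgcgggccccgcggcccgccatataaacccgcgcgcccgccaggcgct
SCD: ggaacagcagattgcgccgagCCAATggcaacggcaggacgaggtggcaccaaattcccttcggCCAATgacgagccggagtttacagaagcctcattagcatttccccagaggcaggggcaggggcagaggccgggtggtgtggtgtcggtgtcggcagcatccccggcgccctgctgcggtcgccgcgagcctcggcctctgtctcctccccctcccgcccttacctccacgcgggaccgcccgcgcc
FADS2: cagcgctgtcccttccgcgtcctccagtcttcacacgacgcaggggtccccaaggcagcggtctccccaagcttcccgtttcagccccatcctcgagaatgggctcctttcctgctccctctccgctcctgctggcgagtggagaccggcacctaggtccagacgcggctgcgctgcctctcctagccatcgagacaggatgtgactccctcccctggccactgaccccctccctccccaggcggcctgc
The MVK stretch held 5 NF-Y boxes, and its window shares 211 bases with that of MMAB, a vitamin B12 enzyme gene read in the opposite direction from a start site 290 bases away. In SREBF2 the core of the sterol regulatory element began 133 bases and the NF-Y box 106 bases before the start site. The printed FADS2 stretch held none of these motifs, nor did the window of AGPAT2. Another window of FADS2, not printed, held 1 NF-Y box, at base 6 after its start site.

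**Figure D1:**
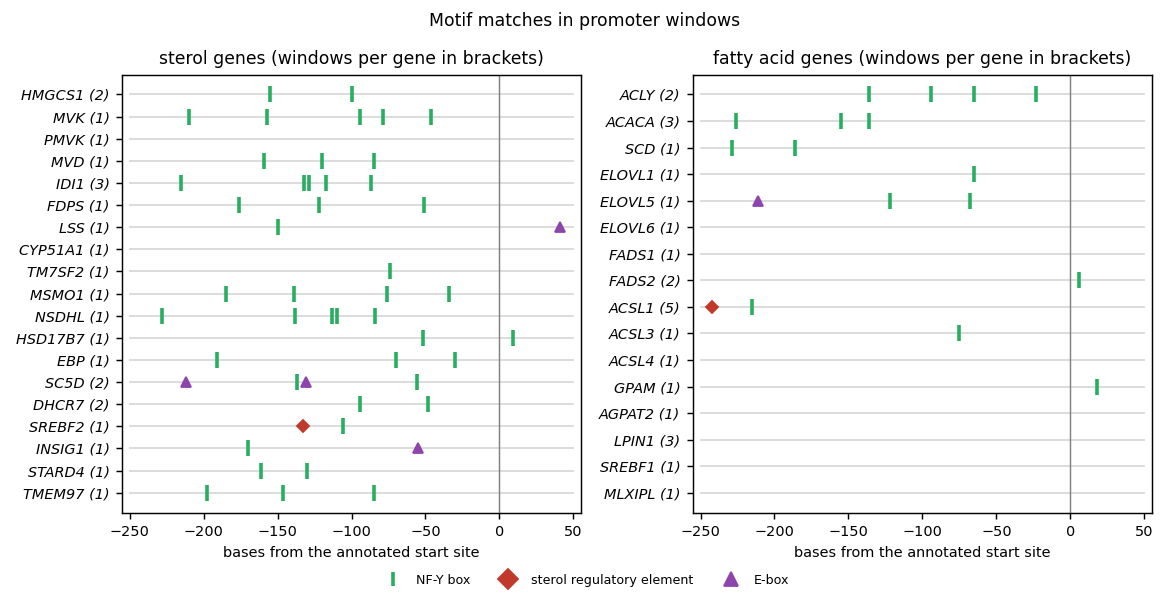
Motif matches in the promoter windows of 19 sterol genes (left) and 16 fatty acid genes (right), plotted by distance in bases from the annotated start site at 0. Windows of a gene with several start sites are drawn on one line, so a box near 2 start sites can appear at 2 distances; bars for the NF-Y box stand in 17 sterol and 9 fatty acid genes, and diamonds, in SREBF2 and ACSL1, mark the core of the sterol regulatory element.

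The comparison of TCI04 with PBS asked which members of the pathway differed after 48 h. No member passed the adjusted threshold of 0.05 in either direction (limma, smallest adjusted p among members 0.697). Over the whole array, 1 of 32746 probe sets passed toward lower values (0.00305%) and 0 toward higher values, and by gene 0.00731% passed. Most of the pathway stood at nearly the same signal in both groups, and the members with the lowest estimates were the mevalonate kinase MVK, the desaturase FADS2 and the acyltransferase AGPAT2. These 3 of 35 members had an unadjusted p under 0.05, all lower with TCI04, against 7.05% of all tested genes in either direction and 4.15% in the lower direction. The same 3 tested members had groups that did not overlap, again all lower, against 13.6% of all tested genes in either direction, 6.91% in the lower and 6.66% in the higher direction. A share of 3 in 35 is not far from these backgrounds.

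The sterol and the fatty acid genes had similar centres. Of the 19 sterol genes 8 had a lower mean with TCI04, and of the 16 fatty acid genes 8 did, against 50.6% of all tested genes. Centring each array on its median turned this to 2 and 3 lower, while the median of all tested genes moved to 0.16. The median log2 fold change (TCI04 minus PBS, on log2 of signal plus an offset) was 0.005 for the sterol and 0.007 for the fatty acid genes, against -0.002 for all tested genes, and the difference of the list medians was -0.002. The width of the estimates differed more than their centre. The median absolute log2 fold change was 0.037 for sterol and 0.106 for fatty acid genes, against 0.105 for all tested genes. The median standard errors were 0.086 and 0.108, against 0.124. The 95% interval lay wholly within a 1.5-fold change for 17 of 19 sterol genes, all but MVK and SREBF2, and for 11 of 16 fatty acid genes, all but FASN, FADS2, AGPAT2, DGAT1 and PNPLA3, against 66.5% of all tested genes. For all 35 members it lay within 2-fold, against 86.1%. These counts were not matched for signal, and dim genes have wider intervals. In bulk RNA, a change of the RNA per cell and a change in the share of cells that hold it cannot be told apart.

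**Figure D2:**
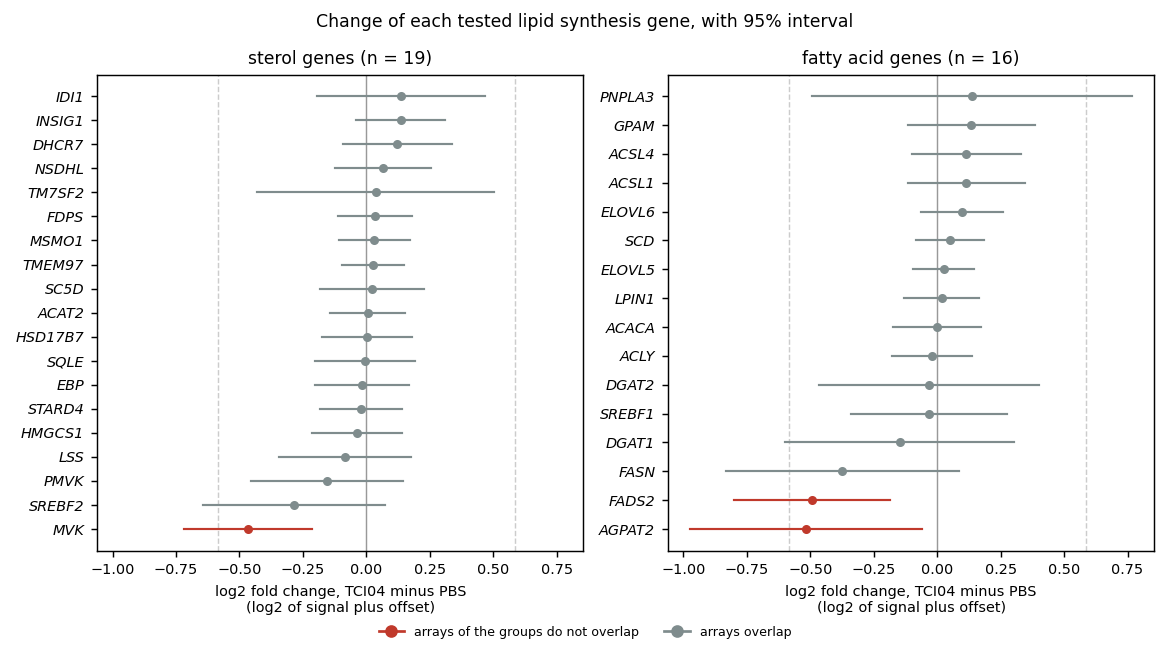
Log2 fold change of each tested member, TCI04 minus PBS, as a point with its 95% interval from limma (3 arrays per group), sterol genes left and fatty acid genes right. Dashed lines mark a 1.5-fold change; intervals cross 0 for all but the 3 genes in red, MVK, FADS2 and AGPAT2, and none of these passed the adjusted threshold.

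The mevalonate steps run from acetyl-CoA to farnesyl diphosphate. MVK, which phosphorylates mevalonate, had signals of 407, 403 and 391 in TCI04 cells, against 636, 531 and 513 in PBS cells. All 3 TCI04 arrays lay below all 3 PBS arrays, and the TCI04 arrays lay close together (400.2 ± 8.39 with TCI04 and 559.9 ± 66.4 with PBS, SD, n = 3 arrays each). The estimate on the log2 scale was -0.47 (standard error 0.11, 95% interval -0.72 to -0.22), a signal 1.38-fold lower on the offset scale, and it did not pass (limma, adjusted p = 0.697, unadjusted p = 0.00191). The other tested probe sets of MVK gave -0.45 (187, 131 and 141 with TCI04, 224, 192 and 217 with PBS) and -0.92 (68.7, 79.8 and 32.8 with TCI04, 121, 122 and 111 with PBS), and in each of the 3 the groups did not overlap. They read the same transcripts in the same 6 samples and are not separate evidence.

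MMAB, named after its values were seen because its promoter window overlaps that of MVK, had signals of 461, 361 and 358 in TCI04 cells, against 405, 503 and 493 in PBS cells. Its groups overlapped, since TCI04 replicate 1 lay above PBS replicate 1 (log2 fold change -0.25, 95% interval -0.55 to 0.06, limma adjusted p = 0.705). A dimmer probe set of MMAB gave -0.91 without overlap, and another, below the filter and not tested, was higher without overlap.

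The other mevalonate genes had estimates nearer 0 and overlapping groups in the probe set that stood for them. HMGCS1, the synthase that makes HMG-CoA and a standard readout of SREBP2 activity, had 1989, 2102 and 2177 in TCI04 cells, against 1943, 2321 and 2179 in PBS cells, so the TCI04 arrays lay inside the PBS range (log2 fold change -0.04, 95% interval -0.22 to 0.14). Its dimmer probe set gave -0.28, at 682, 770.2 and 699 with TCI04 against 862, 924 and 827 with PBS, without overlap (limma adjusted p = 0.697). FDPS, the synthase of farnesyl diphosphate, had 10663, 11175 and 11754 in TCI04 cells, against 10112, 11678 and 11059.8 in PBS cells (log2 fold change 0.03). IDI1, which interconverts the isoprenoid units, had the highest estimate of the sterol genes at 0.14 (95% interval -0.20 to 0.47), with 5584, 6759.8 and 7363 in TCI04 cells, against 4542, 7018 and 6562 in PBS cells. That estimate rested on PBS replicate 1, the lowest of the 6 arrays, and was -0.06 without it. The second probe set of IDI1 gave 0.01 and its dimmer ones -0.20 and -0.26. All of its probe sets but the dimmest are of a type that can also bind related transcripts. The thiolase ACAT2 had log2 fold change 0.01. PMVK, the kinase after MVK, was named after its values were seen: its 495, 479 and 366 in TCI04 cells, against 448, 517 and 522 in PBS cells, gave -0.16, and -0.02 without TCI04 replicate 3. MVD, the decarboxylase after PMVK, was below the filter at 12.4, 19.3 and 3.01 in TCI04 cells and 9.72, 53.8 and 19.1 in PBS cells, and was not tested.

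The squalene and sterol steps, from squalene to cholesterol, lay close to 0 in the probe set that stood for each gene. Their 9 tested genes had log2 fold changes from -0.08 to 0.12 with a median of 0.02, and all 9 intervals lay within 1.5-fold. MSMO1, which removes methyl groups from the sterol ring, had 9448, 8742 and 9809 in TCI04 cells, against 9435, 8607 and 9345 in PBS cells (log2 fold change 0.03, 95% interval -0.11 to 0.17). Its groups overlapped. SQLE, the oxidase that acts on squalene, averaged 2088 ± 211 in TCI04 cells and 2091 ± 146 in PBS cells (SD, n = 3 arrays each). The cyclase LSS, the reductases TM7SF2 and DHCR7, the dehydrogenases NSDHL and HSD17B7, the isomerase EBP and the desaturase SC5D all had overlapping groups in the probe set that stood for them. The probe set of HSD17B7 is of the type that can also bind related transcripts. Some dimmer probe sets lay further from 0. A dimmer SQLE probe set gave -0.51 and an LSS one -0.44, both lower without overlap, and a DHCR7 one -0.29 with overlap. An SC5D one near the filter gave 0.82, higher without overlap. The other dimmer probe sets gave -0.06 and 0.01 for SQLE and -0.27 for LSS, with overlap. None passed the adjusted threshold.

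Genes of sterol sensing and transport did not pass either. SREBF2 had 324, 369 and 264 in TCI04 cells, against 378, 331 and 465 in PBS cells, and TCI04 replicate 2 lay within the PBS range. Its log2 fold change of -0.28 had a 95% interval from -0.64 to 0.08 (limma adjusted p = 0.707), and its other probe sets gave -0.18, without overlap, and -0.02. INSIG1, itself a target of the SREBPs, had 3311, 2979 and 3634 in TCI04 cells, against 3072, 3052 and 2884 in PBS cells. TCI04 replicate 2 lay inside the PBS range (log2 fold change 0.14, 95% interval -0.04 to 0.31, limma adjusted p = 0.713), and the estimate was 0.07 without TCI04 replicate 3. Its other probe sets gave 0.09 and 0.03. The sterol carrier STARD4 had -0.02, and TMEM97, a sterol-responsive membrane protein of the endoplasmic reticulum and lysosome, 0.03. The dimmer probe sets of TMEM97 gave -0.02, -0.25 and 0.002, of which only -0.25 was without overlap (limma adjusted p = 0.697).

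Among the genes that make palmitate, ACLY, which frees acetyl-CoA from citrate, had 13126, 11899.6 and 13948 in TCI04 cells, against 13922, 12254 and 13316 in PBS cells (log2 fold change -0.02, 95% interval -0.18 to 0.14). ACACA, the acetyl-CoA carboxylase, averaged 1729.6 ± 120 in TCI04 cells and 1730.2 ± 81.6 in PBS cells (SD, n = 3 arrays each). FASN, the fatty acid synthase, had 1096, 1201 and 604 in TCI04 cells, against 1271, 1249 and 1100.2 in PBS cells. The groups overlapped, and the low mean came from TCI04 replicate 3: the log2 fold change was -0.37 (95% interval -0.83 to 0.09, limma adjusted p = 0.705) and -0.07 without that array.

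Elongation and desaturation shape the chain. SCD, which puts the first double bond into stearate and palmitate, had 8372, 8336 and 9039 in TCI04 cells, against 7871, 8622 and 8359 in PBS cells (log2 fold change 0.05, 95% interval -0.08 to 0.18). Its dimmer probe sets gave -0.05, -0.34 and -0.47, the last 2 without overlap between the groups (limma adjusted p = 0.697 for both), so the probe sets of SCD disagreed. FADS2, the delta-6 desaturase of polyunsaturated fatty acids, had 430.4, 332 and 299 in TCI04 cells, against 511, 478 and 503 in PBS cells. All TCI04 arrays lay below all PBS arrays. The means were 354 ± 68.3 with TCI04 and 497 ± 17.0 with PBS (SD, n = 3 arrays each), a log2 fold change of -0.49 with a 95% interval from -0.80 to -0.18 (limma, adjusted p = 0.697, unadjusted p = 0.00498). Its dimmer probe set gave -0.43 with overlapping groups. The elongases ELOVL5 and ELOVL6 had 0.02 and 0.10, and the acyl-CoA synthetases ACSL1 and ACSL4, which activate fatty acids, 0.11 each. The dimmer probe sets of ELOVL6 gave 0.21 (95% interval 0.01 to 0.42) and -0.16, both with overlapping groups. Those of ELOVL5 gave -0.05, -0.60 and 0.20, of which only -0.60 was without overlap. None of these passed the adjusted threshold.

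The glycerolipid steps attach fatty acids to glycerol. AGPAT2, which makes phosphatidic acid, had 542, 498 and 278 in TCI04 cells, against 589, 652 and 588 in PBS cells. The groups did not overlap, and TCI04 replicate 3 lay far below the other TCI04 arrays. The log2 fold change was -0.52 with a 95% interval from -0.97 to -0.06 (limma, adjusted p = 0.697, unadjusted p = 0.0306), and -0.23 without TCI04 replicate 3. The unadjusted p of AGPAT2 was no longer under 0.05 when TCI04 replicate 3 or any single PBS array was left out. Its dimmer probe set gave -0.08 with overlapping groups. PNPLA3, a lipid droplet acyl hydrolase, had the highest estimate of the fatty acid genes at 0.14, from low signals of 47.4, 92.6 and 74.4 in TCI04 cells and 64.2, 66.7 and 55.5 in PBS cells, with an interval from -0.49 to 0.77. The acyltransferases GPAM, DGAT1 and DGAT2 and the phosphatidate phosphatase LPIN1 had overlapping groups in the probe set that stood for them, while a dimmer probe set of DGAT2 was lower without overlap (log2 fold change -0.46, limma adjusted p = 0.697). Of the transcription factors, SREBF1 had 387, 342 and 282 in TCI04 cells, against 322, 360.4 and 345 in PBS cells (log2 fold change -0.03, 95% interval -0.34 to 0.28), with the TCI04 arrays on both sides of the PBS range. MLXIPL, the carbohydrate-responsive factor, was below the filter at 9.54, 6.49 and 5.20 in TCI04 cells and 29.7, 11.5 and 12.8 in PBS cells, and was not tested.

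**Figure D3:**
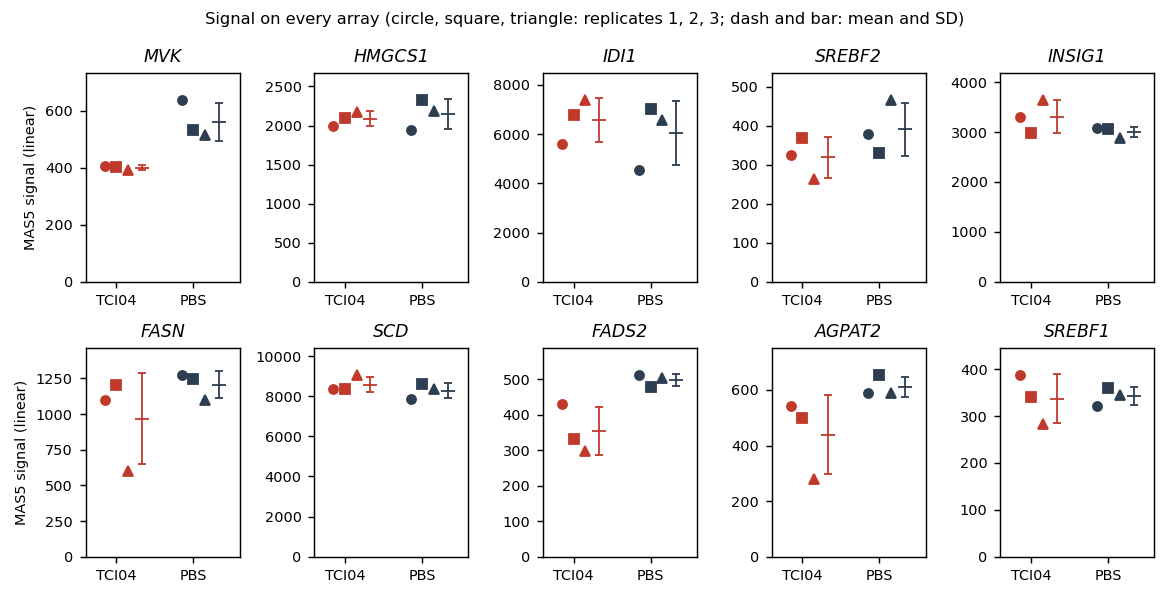
MAS5 signal (linear axis from 0) of 10 members on every array, TCI04 left and PBS right, with the replicate number as the marker shape and the mean and SD of 3 arrays beside the points. MVK, FADS2 and AGPAT2 show no overlap between the groups, and the triangles of FASN and AGPAT2 (604 and 278, TCI04 replicate 3) stand apart from the other TCI04 arrays.

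Many members are read by several probe sets, and the dimmer ones gave lower estimates than the brightest. Of the 44 tested probe sets of members other than the brightest, 30 had a lower mean with TCI04 (68.2%). The share was 59.4% for the 12828 such probe sets of all genes. Of the 44, 12 were lower without overlap between the groups (27.3%), a larger share than the 9.38% of all such probe sets. The median log2 fold change of the 44 was -0.07, against -0.04 for all genes. The 12 were 8 of sterol genes and 4 of fatty acid genes, and 3 others, of SC5D, ACACA and ACSL1, were higher without overlap, against 4.8% of all such probe sets. None passed (limma, smallest adjusted p 0.697). Of 25 members with several tested probe sets, 11 had the same sign in all of them. MVK was lower in 3 of 3 and INSIG1 higher in 3 of 3, while IDI1, SQLE, DHCR7, TMEM97 and SCD had both signs. The probe sets of a gene share the sample, and probe sets of overlapping transcripts are not independent.

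**Figure D4:**
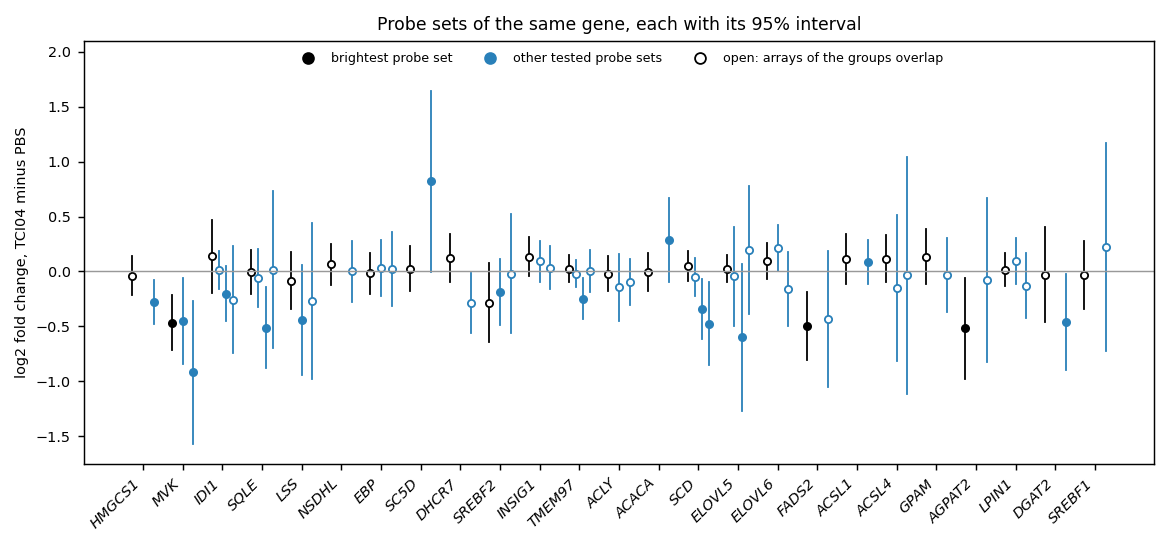
Log2 fold change (TCI04 minus PBS) with its 95% interval for every tested probe set of the 25 members that have several, ordered within a gene from bright to dim, the brightest in black. Filled points mark groups that do not overlap; a dimmer probe set is lower without overlap in HMGCS1, MVK, IDI1, SQLE, LSS, SREBF2, TMEM97, SCD, ELOVL5 and DGAT2, and among these only MVK is also lower without overlap in its brightest one.

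Single arrays moved parts of the pathway. The sterol genes were low in PBS replicate 1: their median there was -0.11 when each gene was set against its PBS mean, 14 of 19 lay below that mean, and 10 of 19 had their lowest signal of all 6 arrays there, against 19.0% of all tested genes. The other PBS arrays had sterol medians of 0.05 and 0.04, and the TCI04 arrays -0.04, -0.03 and 0.06, all inside the span of the PBS arrays apart from TCI04 replicate 3, just above it. Leaving out PBS replicate 1 moved the sterol median to -0.05, and leaving out PBS replicate 2 or 3 moved it to 0.05 or 0.04. The fatty acid medians lay between -0.03 and 0.08 on every array. TCI04 replicate 3 held the lowest signal of 8 of 35 members (PMVK, MVK, SREBF2, FASN, FADS2, AGPAT2, DGAT1 and SREBF1), against 19.1% of all tested genes, and the highest signal of 14, against 26.2%. The ratio of the 3′ to the 5′ control probe set of ACTB, a measure of RNA integrity, was 3.33 on this array and 1.64 to 1.72 on the others, and that of GAPDH was 1.21 on this array and 0.973 to 1.08 on the others. Their part in these values was not tested.

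**Figure D5:**
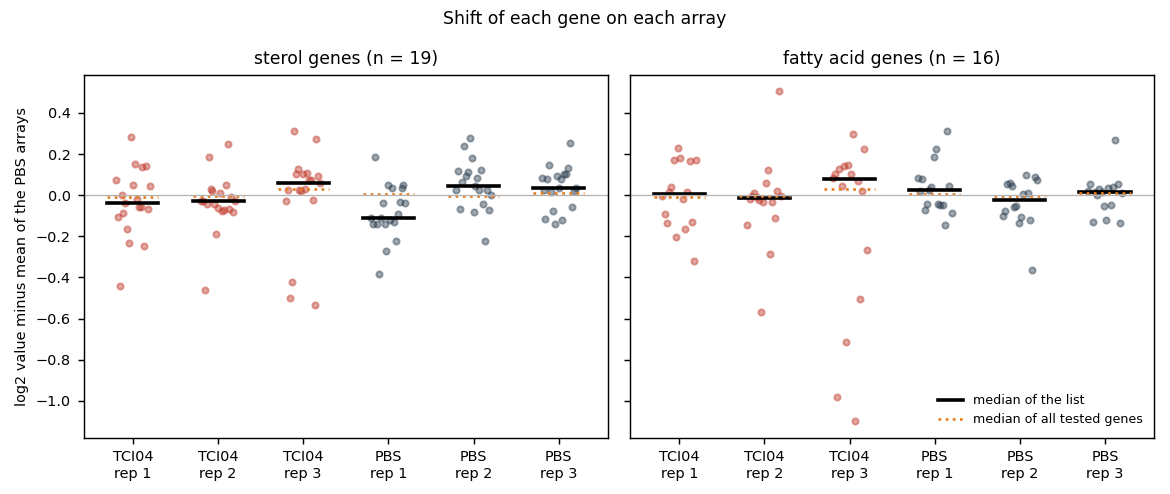
Log2 value of each tested member on each array relative to its mean over the PBS arrays, TCI04 arrays left of PBS arrays, for 19 sterol genes (left) and 16 fatty acid genes (right). Black bars are list medians and dotted bars medians of all tested genes; the sterol median is lowest in PBS replicate 1, at -0.11, and a few genes fall far below 0 in TCI04 replicate 3.

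A wider list of 34 genes next to the pathway, in sterol regulation, acetyl-CoA supply, elongation and glycerolipid synthesis, had 27 tested genes. Of these 16 had a higher and 11 a lower mean with TCI04, with a median log2 fold change of 0.02, and 0 passed in limma, with 3 higher and 1 lower at an unadjusted p under 0.05, against 2.9% and 4.15% of all tested genes. LPIN2, a phosphatidate phosphatase, had 1514, 1298 and 1402 in TCI04 cells, against 1219, 1180.2 and 1221 in PBS cells, without overlap (log2 fold change 0.21, 95% interval 0.04 to 0.39, limma adjusted p = 0.697), and its other probe set gave 0.07. AGPAT1, which catalyses the same step as AGPAT2, had 1243, 1408 and 1396 in TCI04 cells, against 1668, 1478 and 1555 in PBS cells, without overlap (log2 fold change -0.21, 95% interval -0.40 to -0.03, limma adjusted p = 0.697), but its other probe set gave 0.04 with overlapping groups. The others at that unadjusted threshold were HACD2, a dehydratase of elongation, and the acyltransferase GPAT3, both with higher means and named after their values were seen. Of the 27 tested genes, 3 were higher without overlap and 1 lower, against 6.66% and 6.91% of all tested genes. The 3 were LPIN2, HACD2 and LBR, the last also named after its values were seen, and the 1 was AGPAT1. HSD17B12, the reductase of elongation, and the fatty acid-binding protein FABP5 had -0.01 and -0.03.

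As a check of the label, all 5 mesenchymal and all 5 luminal markers passed the filter. Passing it does not show that a gene is expressed, so this check cannot set the cells apart as mesenchymal or luminal. Signals of different probe sets were not ranked. Of the mesenchymal markers, VIM lay at 26217 to 28539 in TCI04 cells and 28052 to 31882 in PBS cells, CAV1 at 21824 to 24214 and 23111 to 24166, AXL at 18227 to 19842 and 17608 to 19434, CD44 at 9520.2 to 10554 and 9625 to 9845, and SPARC at 643 to 781 and 734 to 799. Of the luminal markers, KRT19 lay at 873 to 1718 in TCI04 cells and 1424 to 1793 in PBS cells, GATA3 at 683 to 864 and 777 to 995, EPCAM at 340.2 to 454 and 393 to 423, FOXA1 at 85.6 to 138 and 91.2 to 134, and ESR1 at 18.5 to 39.7 and 20.9 to 94.3. Of 15 markers of leukocytes, endothelium, fibroblasts, hepatocytes and adipocytes, 11 did not pass the filter, which acts on mean log2 values and corresponds to a signal of 33.9. Among these 11, COL1A2 was lower without overlap (6.52, 31.9 and 4.74 in TCI04 cells, against 56.3, 80.2 and 48.2 in PBS cells), CD14 was higher without overlap (20.3, 19.0 and 27.1 in TCI04 cells, against 7.79, 3.43 and 15.1 in PBS cells), and the groups of the others overlapped. The other 4 of the 15 passed it, at 43.2 to 109 in TCI04 cells and 39.3 to 117 in PBS cells for CD3E, 141 to 172 and 184 to 191 for PECAM1, where the groups did not overlap, 372 to 525 and 414 to 459 for COL1A1, and 75.2 to 106 and 58.0 to 151 for TTR. The part of these markers in the results was not tested. Array medians lay between 58.9 and 59.8 for TCI04 and between 64.0 and 74.3 for PBS.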

How the data were processed

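Each probe set has 1 deposited intensity per array, not log-transformed, and the submitters' processing notes name MAS5. Every array had the same trimmed mean (500.1, with 2% off each end), which fits a scaling of each array by the authors. Version and detection calls are not given in the sources used here.

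An offset of 10.96, the 20th percentile of the table, was added to each signal before log2. This scale understates changes of dim probe sets. The 62 control probe sets and those with a mean below the 40th percentile were left out, leaving 32746 of 54675. TCI04 minus PBS was tested in R 4.3.3 by limma 3.58.1 (two-sided, lmFit and trended eBayes, Benjamini-Hochberg over all tested probe sets, threshold 0.05), after the steps had been tested on simulated data. Only probe sets with 1 gene symbol were named. All 37 member symbols equalled RefSeq's for their Entrez ID. Array number limits the precision. Mean signals of probe sets served to filter them, to order those of a gene and to pick the members with the highest means. They were not read as relative amounts of RNA of different genes.

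Values of every array were given for members with an unadjusted p under 0.05, groups without overlap, the highest means and the extreme estimates of each list, and 6 standard readouts. The members and lists were chosen with earlier results of these data known. Alternatives were other normalizations, offsets, filters, probe set choices and variance models, a replicate block and single arrays left out.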

Additional observations from a re-analysis of the deposited data

How the results depend on the processing

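In all 19 alternatives 0 members passed the adjusted threshold in either direction and 0 probe sets of the table passed toward higher values. The 1 lower probe set of the table went to 0 with median centring, without a variance trend and with the ordinary t statistic, and was 0 to 1 over the fits lacking an array. Median centring moved the median of all genes to 0.16. Both lists moved with it, to medians of 0.165 (sterol) and 0.167 (fatty acid) with 2 and 3 members lower, against 8 and 8, and the difference of the lists stayed at -0.002. Relative to that shift the lists lay at the centre of all genes. Averaging all probe sets per gene, the fatty acid median was -0.055, and without probe sets ending in _x_at or _s_at 5 fatty acid members were lower, of 11 tested. With single arrays left out, the sterol median ranged from -0.051 to 0.046, the fatty acid median from 0.012 to 0.025, their difference from -0.062 to 0.034, and the members lower from 6 to 12 (sterol) and from 6 to 7 (fatty acid).

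MVK, FADS2, AGPAT2, FASN, SREBF2, INSIG1, MMAB, LPIN2 and AGPAT1 did not change sign in any alternative run on them, with adjusted p from 0.280 to 0.942. MVK ranged from -0.612 to -0.308, FADS2 from -0.639 to -0.334, AGPAT2 from -0.692 to -0.225 and FASN from -0.559 to -0.069, the last 2 smallest without TCI04 replicate 3. The other 11 of 20 genes followed changed sign somewhere, and the cause was not tested. Median centring gave ACLY 0.140, HMGCS1 0.123, SREBF1 0.127, HSD17B12 0.149, FABP5 0.128 and PMVK 0.004. Averaging probe sets gave SCD -0.203, IDI1 -0.077, SREBF1 0.096 and HSD17B12 0.006. Quantile normalization gave SREBF1 0.016, array weights FDPS -0.010 and SREBF1 0.024, and the choice without _x_at or _s_at probe sets IDI1 -0.255. With single arrays left out the range was -0.073 to 0.042 for ACLY, -0.086 to 0.005 for FABP5, -0.023 to 0.081 for FDPS, -0.107 to 0.021 for HMGCS1, -0.055 to 0.013 for HSD17B12, -0.056 to 0.257 for IDI1, -0.010 to 0.078 for MSMO1, -0.048 to 0.366 for PNPLA3 and -0.135 to 0.085 for SREBF1. With the replicate block no member passed (MVK -0.467, limma adjusted p 0.447) and FASN joined MVK, FADS2 and AGPAT2 at an unadjusted p under 0.05. With median centring 6 members were higher and 2 lower at that level, where 19.4% of all genes were. AGPAT2 was not under that level with median centring, averaged probe sets, no variance trend, array weights or the ordinary t statistic. FADS2 was not under it without probe sets ending in _x_at or _s_at, where a dimmer probe set stood for the gene. Averaging probe sets brought SCD (lower) and SC5D (higher) under it. Whether same-numbered arrays of the groups were handled as pairs is not stated. The correlations of their deviations were 0.004, 0.062 and 0.050, and 4 of 6 arrays correlated best with their own number. These values do not settle whether the arrays were paired. Dim members are limited by signal near the filter.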
